A study of Mus musculus with 7 samples.

Results

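Genes of acylceramide and skin barrier lipid metabolism were followed in Iqgap1 knockout and wild-type mice: Elovl4, Cers3, Cyp4f39, Pnpla1, Ugcg, Abca12, Alox12b, Aloxe3 and Smpd1. They are 9 of the 19937 genes measured on the array. They were chosen by name from the pathway, with earlier results of these data known. The shares of all genes given beside them are therefore descriptive. Each of the 9 was read from the probe set that names it alone. All 9 had exactly 1 such probe set. RNA of whole tissue was hybridised to 7 Affymetrix Mouse Gene 1.0 ST arrays in 4 groups: day 6 in Iqgap1 knockout (n = 2) and in wild type (n = 2), and day 0 in Iqgap1 knockout (n = 2) and in wild type (n = 1). All 4 groups are labelled with topical 4OHT (4-hydroxytamoxifen, which activates proteins fused to a modified oestrogen receptor). The labels do not say from what event the day is counted, name no such protein, give no age, and call the tissue only mouse tissue, from mice of a mixed C57BL/6 and 129 background in every group. Values are log2 expression values, so a difference of 1 is a 2-fold change.

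The outer layer of the skin holds water back with stacked lipid sheets, in which ceramides that carry very long acyl chains are the signature component. ELOVL4 lengthens the fatty acid, CERS3 joins it to a sphingoid base, CYP4F39 (the mouse counterpart of human CYP4F22) puts a hydroxyl group on the far end of the chain, and PNPLA1 esterifies linoleate to that end. UGCG adds glucose, ABCA12 moves the glucosylated lipid into lamellar bodies for secretion, the lipoxygenases ALOX12B and ALOXE3 oxidise the linoleate in turn, and SMPD1, acid sphingomyelinase, makes ceramide from sphingomyelin. Inherited loss of most of these proteins causes ichthyosis in humans.

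Iqgap1 itself had log2 values of 8.58 and 8.67 in knockout and 10.11 and 10.59 in wild type at day 6, against 9.02 and 8.99 in knockout and 9.94 on the wild-type array at day 0, so every knockout array lay below every wild-type array. Where its probe set lies relative to the deleted part was not used here. The keratinocyte genes of highest mean level in their lists were high on all 7 arrays, with Krt5 at 12.14 to 12.79 and Krt10 at 11.14 to 12.56. Other genes of these lists changed strongly with day, as given below. Genes of muscle and fat were also present, so keratinocytes were 1 of several tissues sampled. The wild-type day 0 array stood apart. The mean log2 value of 12 measured hair follicle genes was 11.48 on it, against 4.98 to 6.30 on the other 6 arrays. Xist was high on that array (11.15) and on wild-type day 6 replicate 1 (10.30), and the other 5 arrays had Y-linked signal in its place. The labels do not say whether replicates are separate animals. In wild type at day 6 they cannot both come from 1 animal. Replicate 1 had Xist signal and replicate 2 had Y-linked signal (Uty at 3.71 and 7.97). For the knockout replicates this is not known. Each p-value thus refers to the spread among these arrays, part of which may be technical. In whole tissue, fewer cells of a type and less RNA per cell cannot be told apart.

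Enzymes of 4 steps in building and glucosylating acylceramide were higher at day 6 than at day 0. Over both genotypes 4 of the 9 genes rose and 0 fell, where 5.85% of all genes rose and 5.62% fell. The 4 were Cers3, Cyp4f39, Pnpla1 and Ugcg, each by slightly more than 2-fold. All 9 fitted differences were above 0, with a median of 1.13 on the log2 scale, beside a median of 0.06 over all genes. In 5 genes (Cers3, Pnpla1, Alox12b, Ugcg and Smpd1) all 4 day 6 arrays lay above all 3 day 0 arrays, which held for 11.9% of all genes. The opposite held for 0 of the 9 and for 9.66% of all genes.

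**Figure D1:**
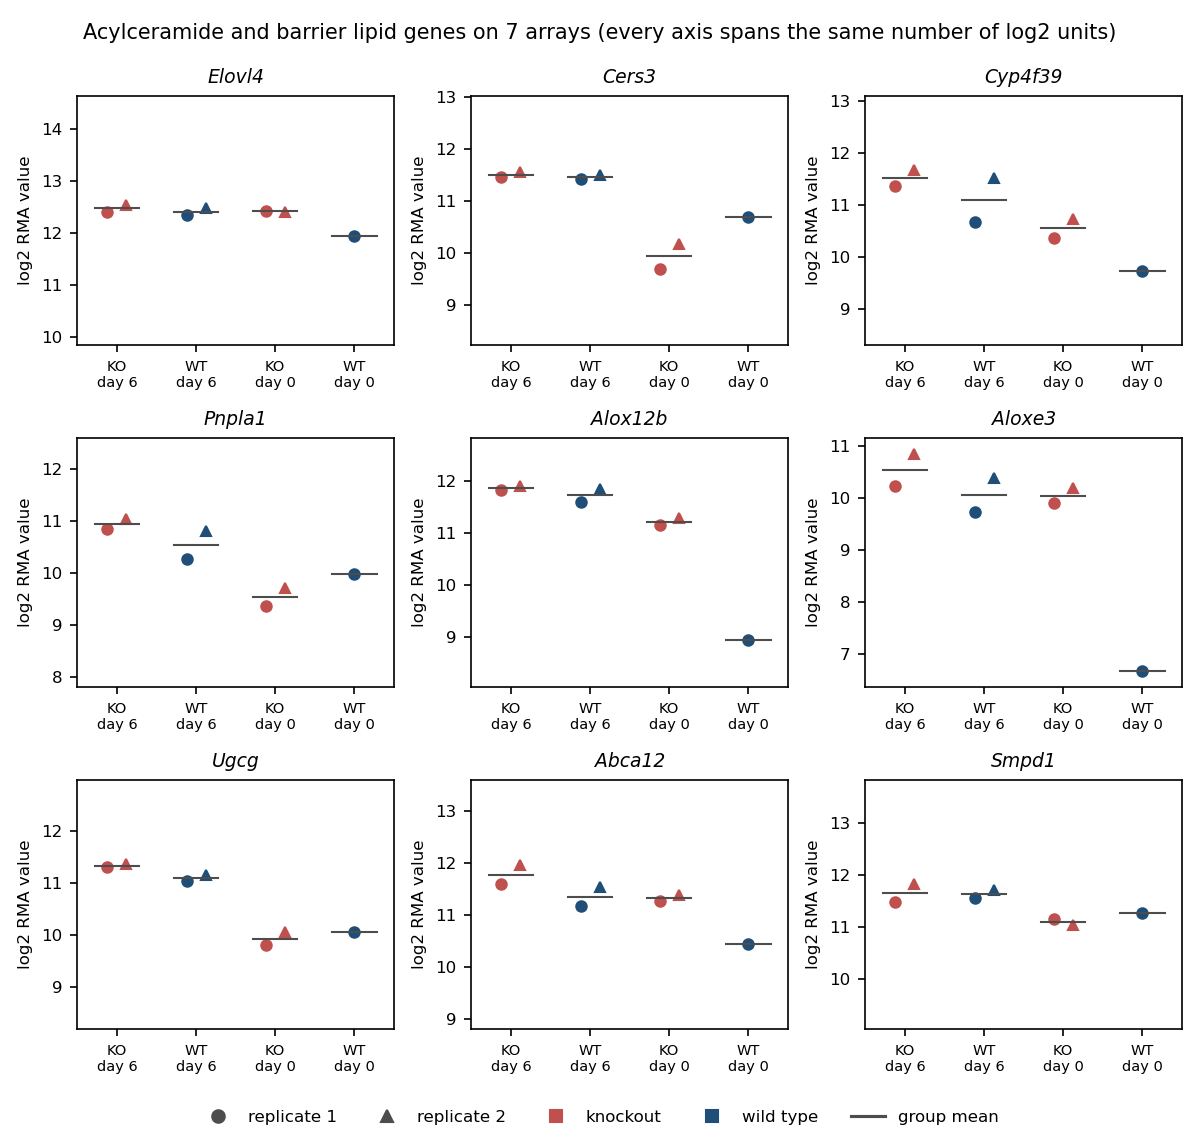
Log2 RMA values (vertical axes, each spanning the same number of log2 units) of the 9 genes on the 7 arrays, by group; circles are replicate 1, triangles replicate 2, and lines group means. Ugcg and Cers3 show all day 6 points above all day 0 points, Elovl4 stays within 11.93 to 12.53, and Alox12b and Aloxe3 have a single low point, the wild-type day 0 array.

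Ugcg, the ceramide glucosyltransferase, had the clearest difference. Its values were 11.30 and 11.37 in knockout and 11.03 and 11.16 in wild type at day 6, against 9.80 and 10.06 in knockout and 10.06 on the wild-type array at day 0. The lowest day 6 array was 0.97 above the highest day 0 array. Ugcg rose 2.39-fold, by 1.26 ± 0.14 on the log2 scale (SE, limma adjusted p = 0.00413).

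Cers3, the ceramide synthase that takes the longest acyl chains, had 11.45 and 11.54 in knockout and 11.42 and 11.50 in wild type at day 6. At day 0 it had 9.69 and 10.17 in knockout and 10.69 in wild type. The 4 day 6 arrays thus lay close together, while the 3 day 0 arrays were spread over a full log2 unit. The rise was 2.38-fold, 1.25 ± 0.21 on the log2 scale (SE, limma adjusted p = 0.0147).

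Pnpla1, the transacylase of the last step of acylceramide synthesis, had 10.84 and 11.04 in knockout and 10.27 and 10.81 in wild type at day 6, against 9.35 and 9.70 in knockout and 9.97 on the wild-type array at day 0. It rose by 1.08 ± 0.24 (SE, limma adjusted p = 0.0333). Cyp4f39, the hydroxylase that acts before it, had 11.37 and 11.67 in knockout and 10.68 and 11.52 in wild type at day 6, against 10.37 and 10.73 in knockout and 9.73 on the wild-type array at day 0. Here the groups overlapped, because wild-type replicate 1 of day 6 lay 0.05 below knockout replicate 2 of day 0. Cyp4f39 rose by 1.13 ± 0.24 (SE, limma adjusted p = 0.0296).

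These calls did not hold equally well when single arrays were left out. Leaving out the wild-type day 0 array, alone or with the other array with Xist signal, leaves no day change in wild type, so these 2 settings give the knockout change alone. Ugcg passed in all 17 alternative settings, these 2 included, with limma adjusted p between 0.00163 and 0.0236. Cers3 missed the threshold without knockout day 6 replicate 1 (limma adjusted p = 0.0551) or replicate 2 (0.0594). Pnpla1 and Cyp4f39 missed it without any 1 of the 4 knockout arrays, with limma adjusted p of 0.0933 to 0.113 for Pnpla1 and 0.0524 to 0.111 for Cyp4f39. Pnpla1 also missed it without wild-type day 6 replicate 2 (0.0725) and with the replicate number of the titles as a block (0.0589). For every gene, a term for the arrays with Xist signal gives the same day estimate as leaving out wild-type day 6 replicate 2. It is therefore not a separate check of the day change. Cyp4f39 also missed it with arrays centred on their medians (0.0582), and without the wild-type day 0 array (0.0741). With both arrays with Xist signal left out, which gives the same knockout change (0.97), Cyp4f39 passed.

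Elovl4, the elongase that supplies the chains for these steps, did not pass. It had 12.40 and 12.53 in knockout and 12.34 and 12.47 in wild type at day 6, against 12.41 and 12.40 in knockout and 11.93 on the wild-type array at day 0. The fitted difference was 0.23 with a 95% interval of -0.09 to 0.55, and the change in knockout alone was 0.06. That array was the lowest, and the other 6 lay within 12.34 to 12.53.

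Abca12, the lamellar body lipid transporter, had 11.58 and 11.95 in knockout and 11.16 and 11.54 in wild type at day 6, against 11.26 and 11.37 in knockout and 10.43 on the wild-type array at day 0. Its difference of 0.64 (95% interval 0.22 to 1.06) had a limma adjusted p of 0.0653. Smpd1, the lysosomal and secreted sphingomyelinase, had 11.47 and 11.83 in knockout and 11.56 and 11.70 in wild type at day 6, against 11.14 and 11.03 in knockout and 11.27 on the wild-type array at day 0. The groups did not overlap, but the difference was small, 0.48 (0.15 to 0.81), with a limma adjusted p of 0.0731.

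Promoter sequences are shown for the rising pair with the smallest p, Ugcg and Cers3, and for Alox12b, whose lowest array stood apart. Each is the 250 bases before a transcription start in RefSeq, build GRCm38.p6, 5′ to 3′ on the gene's strand. Of the 9 genes 8 had an entry, and Aloxe3 had none, so its promoter was not searched. Capitals mark matches to the GC box GGGCGG or to the Klf motif GGGTGTGG on either strand.
Ugcg, chr4:59189300-59189549, plus strand: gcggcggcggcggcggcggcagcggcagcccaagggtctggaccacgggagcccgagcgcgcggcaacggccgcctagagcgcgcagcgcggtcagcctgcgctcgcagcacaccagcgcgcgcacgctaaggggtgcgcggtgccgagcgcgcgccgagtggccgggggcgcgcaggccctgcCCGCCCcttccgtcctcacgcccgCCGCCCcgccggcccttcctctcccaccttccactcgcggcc
Cers3, chr7:66743254-66743503, plus strand: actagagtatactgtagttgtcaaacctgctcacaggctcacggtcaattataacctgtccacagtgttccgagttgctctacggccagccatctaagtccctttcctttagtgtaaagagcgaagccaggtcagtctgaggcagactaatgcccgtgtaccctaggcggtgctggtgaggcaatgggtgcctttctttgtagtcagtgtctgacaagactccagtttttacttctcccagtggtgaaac
Alox12b, chr11:69156822-69157071, plus strand: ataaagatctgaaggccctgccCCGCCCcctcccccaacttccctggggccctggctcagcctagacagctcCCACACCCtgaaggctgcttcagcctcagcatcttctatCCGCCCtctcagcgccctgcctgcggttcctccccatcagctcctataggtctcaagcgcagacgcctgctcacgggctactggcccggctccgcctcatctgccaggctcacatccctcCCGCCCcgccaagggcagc
The 2 genes that rose together had unlike promoters. That of Ugcg held 80.4% G and C with 43 CG pairs, and that of Cers3 49.6% with 6, beside a median of 52.4% and 6 over 32851 promoters. The GC box was present in 4 of the 8 promoters (Alox12b, Elovl4, Smpd1 and Ugcg) and in 32.7% of all promoters of this length. The Klf motif was present in Alox12b alone of the 8, and in 3.20% of all. The CCAAT box CCAAT, not marked here, was in those of Pnpla1 and Smpd1 and in 33.8% of all. No match was found in the 8 windows for the AP-1 motif TGANTCA, the Grainyhead motif AACCGGTT, the TATA box TATAAA or the E box CACGTG, which 6.75%, 0.116%, 12.4% and 6.02% of all promoters held.

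The day change was then tested within each genotype. In knockout, 4 of the 9 genes rose and 0 fell, where 7.24% of all genes rose and 9.07% fell. In 8 genes (all but Elovl4) both day 6 arrays lay above both day 0 arrays, which held for 42.2% of all genes. Cers3 rose by 1.57 ± 0.20, Pnpla1 by 1.41 ± 0.23, Ugcg by 1.41 ± 0.17 and Alox12b by 0.65 ± 0.17 (SE), with limma adjusted p of 0.00324, 0.00883, 0.00254 and 0.0409. Cers3 and Ugcg passed in all 16 alternatives of this comparison, but these are not all separate checks. Leaving out wild-type arrays cannot change the knockout difference itself. Without the wild-type day 0 array the fit repeats the main one. Leaving out wild-type day 6 replicate 1, replicate 2 or both arrays with Xist signal gives 1 and the same fit. Pnpla1 missed the threshold without knockout day 0 replicate 1 (0.0615), and Alox12b without any 1 of the 4 knockout arrays (0.133 to 0.268), with all probe sets tested (0.0709) and with centred arrays (0.0958).

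Against the 1 wild-type array of day 0, 3 of the 9 rose and 0 fell, where 3.51% of all genes rose and 3.61% fell (7.11% either way). Both day 6 arrays lay above the day 0 array for all 9, as for 33.7% of all genes. The error of that array is taken from the other groups. Alox12b rose by 2.77 ± 0.20, Aloxe3 by 3.39 ± 0.36 and Ugcg by 1.03 ± 0.20 (SE), with limma adjusted p of 0.000647, 0.00318 and 0.0301. Cers3 differed by 0.77 (95% interval 0.19 to 1.35) and Pnpla1 by 0.57 (-0.11 to 1.25), and neither passed. The call of Ugcg was lost without any 1 of the 4 knockout arrays (0.0564 to 0.0665) or without wild-type day 6 replicate 2 (0.0646), with the replicate block (0.0520), and with all probe sets tested (0.0538). Leaving out either wild-type day 6 array sets 1 wild-type array against 1, so the spread then comes from the knockout arrays and not from wild type. Without wild-type day 6 replicate 1 the differences were 1.78 for Cyp4f39 and 1.11 for Abca12. The wild-type arrays then left also differ in Xist signal, so day and Xist signal cannot be told apart there.

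**Figure D2:**
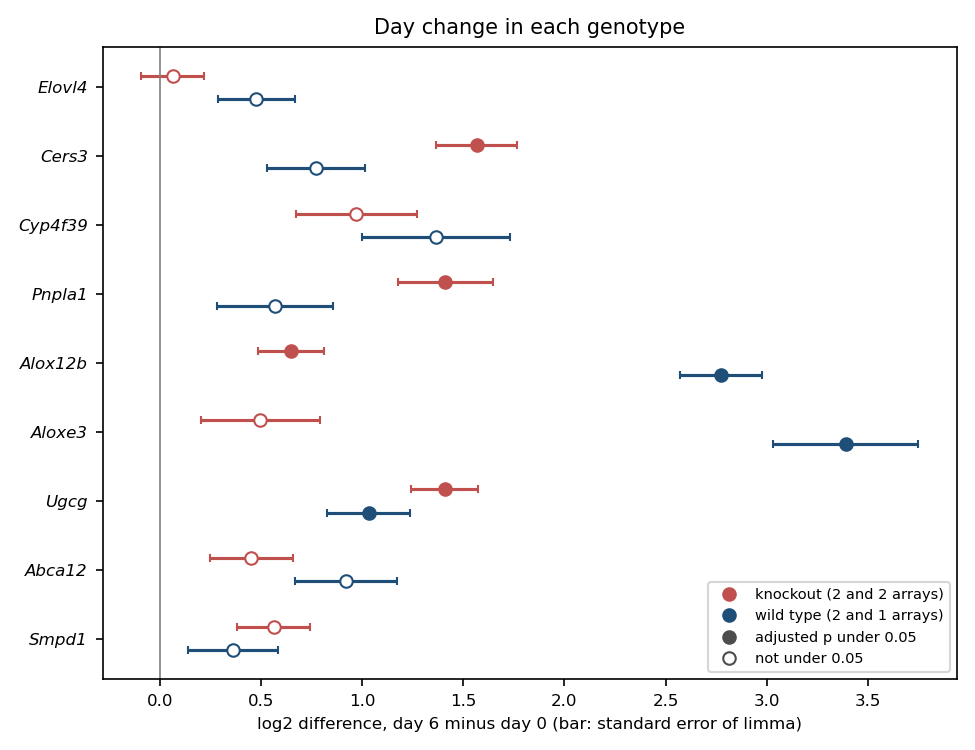
Log2 difference of day 6 minus day 0 (horizontal axis) for each gene in knockout (red, upper point) and wild type (blue, lower point); bars are limma standard errors and filled points have an adjusted p under 0.05. The wild-type points of Alox12b (2.77) and Aloxe3 (3.39) lie far to the right of their knockout points (0.65 and 0.50), while those of the other 7 genes lie within 1 log2 unit of each other.

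Whether the day change differed with genotype was tested directly. It passed for 2 of the 9 genes, both with a negative value of knockout change minus wild-type change, where 1.35% of all genes were called with a negative value, 1.76% with a positive one and 3.1% in all. The day change in knockout minus that in wild type was -2.12 ± 0.26 for Alox12b and -2.89 ± 0.46 for Aloxe3 (SE, limma adjusted p of 0.0122 and 0.0268). Aloxe3 missed the threshold without knockout day 0 replicate 1 (0.0576) or 2 (0.0710), with all probe sets tested (0.0526), and both genes missed it without knockout day 6 replicate 1 (0.0702 for Alox12b and 0.0935 for Aloxe3). All values of this test rest on the single wild-type day 0 array, which cannot be left out of it. That array also had the hair follicle and Xist signal given above. For the other 7 genes the difference lay between -0.47 (Abca12) and 0.84 (Pnpla1). Cers3 had a 95% interval of 0.05 to 1.54 and Pnpla1 of -0.04 to 1.72, with limma adjusted p of 0.259 and 0.308.

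No difference between knockout and wild type passed the test at day 6. Even Iqgap1 itself did not pass, with -1.73 ± 0.20 (SE, limma adjusted p = 0.503). The lack of calls thus does not show that the genotypes were alike. None of the 9 genes passed; limma called 0.0% of all 19937 genes, 1182 of which had an unadjusted p under 0.05. Every fitted difference was above 0, from 0.02 (Smpd1) to 0.48 (Aloxe3), with a median of 0.24 beside 0.00 over all genes. In Pnpla1, Ugcg and Abca12 both knockout arrays lay above both wild-type arrays, which held for 15.9% of all genes. The 95% intervals bound what 2 arrays a group can show: -0.44 to 0.51 for Cers3, -0.16 to 0.64 for Ugcg, -0.07 to 0.91 for Abca12 and -0.22 to 1.17 for Aloxe3. Over both days together limma also called 0.0% of all genes (3729 had an unadjusted p under 0.05), and the 9 differences lay between -0.28 (Cers3) and 1.63 (Aloxe3).

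At day 6 the replicates differed in a common direction. Replicate 1 was below replicate 2 for all 9 genes in knockout and for all 9 in wild type, which held for 43.8% and 41.8% of all genes. In knockout at day 0, replicate 1 was likewise below replicate 2 for 7 of the 9, and for 54.0% of all genes. Replicate 1 of wild type was the lowest day 6 array for 8 of the 9, and for 29.3% of all genes. The same array had Xist signal, and its mean over 8 suprabasal keratinocyte genes was 10.50, against 10.68 in wild-type replicate 2 and 10.75 and 11.04 in knockout. Their part in the result was not tested.

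At day 0 the contrast turned on the pair of lipoxygenases. Alox12b had 11.15 and 11.29 in knockout and 8.95 in wild type, and Aloxe3 had 9.89 and 10.18 in knockout and 6.67 in wild type. On the day 6 arrays Alox12b had 11.83 and 11.91 in knockout and 11.60 and 11.84 in wild type, and Aloxe3 had 10.23 and 10.83 in knockout and 9.73 and 10.39 in wild type. The wild-type day 0 array was thus the lowest by more than 1 log2 unit in both genes, as in 1.21% of all genes. Knockout was higher than wild type at day 0 by 2.27 ± 0.20 for Alox12b (4.82-fold) and by 3.37 ± 0.36 for Aloxe3 (10.3-fold, SE), with limma adjusted p of 0.00151 and 0.00301. They were 2 of 9 genes called, both higher in knockout, where 8.53% of all genes were called higher and 5.86% lower. This contrast and the day change in wild type share the single wild-type day 0 array.

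The other 7 genes did not pass at day 0, and their differences had both signs. Elovl4, Cyp4f39 and Abca12 were also lowest on the wild-type array, with knockout minus wild type of 0.48, 0.82 and 0.89. Cers3, Pnpla1, Ugcg and Smpd1 were lower on both knockout arrays than on the wild-type array, with -0.76, -0.44, -0.14 and -0.18. Both knockout arrays above the wild-type array (5 of 9) was found in 36.0% of all genes, and both below it (4 of 9) in 51.6%. Being lowest of the 7 on the wild-type day 0 array held for 5 of the 9 genes and for 17.5% of all genes.

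Over both genotypes the day change of Alox12b was 1.50 and that of Aloxe3 1.65, and neither passed (limma adjusted p of 0.0651 and 0.127). Alox12b passed over both genotypes with an intensity trend (0.0416) and with dim genes left out (0.0468). Without the wild-type day 0 array what is left is the knockout change given above, 0.65 for Alox12b and 0.50 for Aloxe3. Hair follicle genes were at 11.48 on that array, as given above. Its mean over 8 suprabasal genes was 10.68, against 11.11 and 11.23 in knockout at day 0, and over 8 basal genes 10.04, against 11.00 and 11.09. The part of these other cells in the lipoxygenase values was not tested, and at day 0 the genotype, the hair follicle signal and the Xist signal cannot be told apart.

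In the RefSeq gene order Aloxe3, Alox12b and Alox8 are direct neighbours on chromosome 11. Alox8, the lipoxygenase of mouse epidermis known for its induction by phorbol ester, went the other way on the wild-type day 0 array. It had 5.70 and 5.44 in knockout and 5.17 and 4.89 in wild type at day 6, against 4.98 and 5.10 in knockout and 9.36 on the wild-type array at day 0. Knockout was lower by 4.32 on the log2 scale at day 0 (-4.32 ± 0.22, SE, limma adjusted p = 0.000184). Adjacent genes of 1 locus thus had opposite extremes on the same array.

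**Figure D3:**
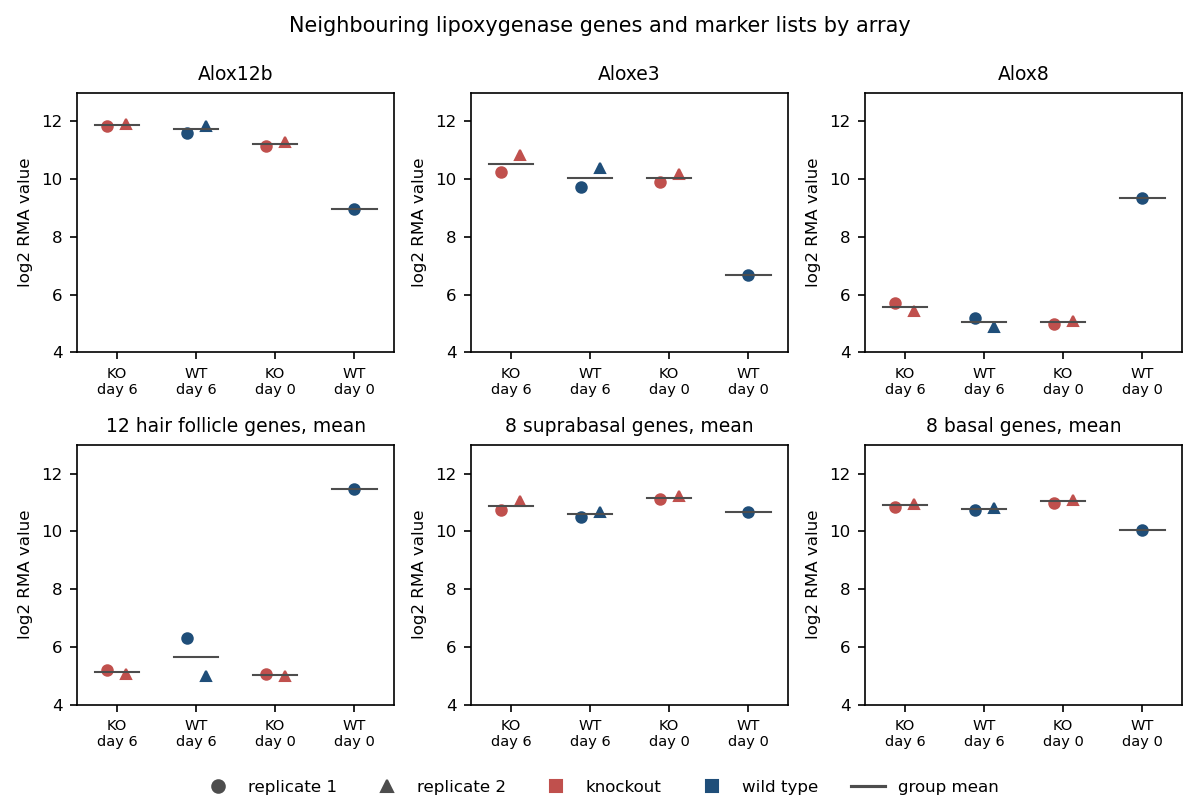
Log2 RMA values (vertical axes, all on the same range) of the neighbouring genes Alox12b, Aloxe3 and Alox8 and the mean of 3 marker lists on the 7 arrays, by group. The wild-type day 0 array is lowest for Alox12b (8.95) and Aloxe3 (6.67) and highest for Alox8 (9.36) and the hair follicle list (11.48), while the suprabasal list spans 10.50 to 11.23.

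The other genes of the pathway were taken by step from 7 lists of 92 genes, of which 88 were measured. These lists too were chosen with earlier results of these data known. Over both genotypes 14 of them rose and 8 fell (15.9% and 9.09%, beside 5.85% and 5.62% of all genes), with a median of 0.04 beside 0.06 over all genes. Calls of 10 of these 22 genes held when any 1 array was left out: Degs2, Sptlc1, Cyp4f16, Smpd3, Sdr9c7, Sult2b1, Casp14, Ppard, Alox12e and Ephx2. Those of the other 12 were lost without at least 1 array, with a highest limma adjusted p of 0.0522 (Pnpla3) to 0.167 (Acsl5).

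**Figure D4:**
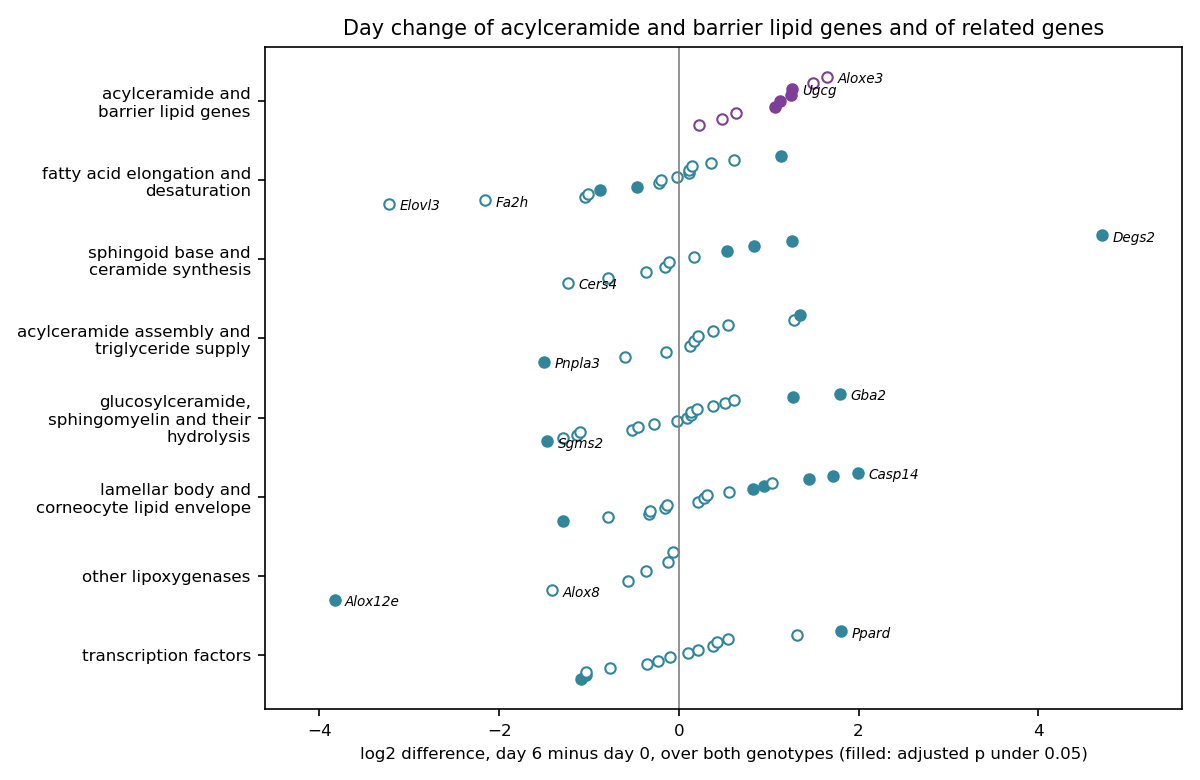
Log2 difference of day 6 minus day 0 over both genotypes (horizontal axis) for the 9 acylceramide and barrier lipid genes (purple, top row) and for the other pathway genes by step (teal); filled points have an adjusted p under 0.05. Degs2 lies alone at 4.71 and Alox12e at -3.83, and the large negative points of Elovl3 and Fa2h are open.

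Sphingoid base and ceramide synthesis had 4 rises and 0 falls among 10 genes. Degs2, the bifunctional desaturase and hydroxylase that makes the phytoceramide base, had 11.47 and 11.46 in knockout and 11.30 and 11.50 in wild type at day 6, against 7.07 and 6.97 in knockout and 6.29 on the wild-type array at day 0. It rose 26.2-fold (4.71 ± 0.17, SE, limma adjusted p = 7.93e-05), in knockout by 4.44 and in wild type by 5.11. Sptlc1 and Sptlc2, subunits of the serine palmitoyltransferase that starts the pathway, rose by 1.26 ± 0.15 and 0.53 ± 0.12, and Degs1 by 0.84 ± 0.17 (SE). The other ceramide synthases, named here after their values were seen, did not pass over both genotypes: Cers2, Cers4, Cers5 and Cers6 had -0.11, -1.24, -0.78 and -0.37, beside the rise of 1.25 in Cers3. Within knockout Cers5 fell by 1.22 on the log2 scale (limma adjusted p = 0.00314) and within wild type it had -0.14, but the difference between these changes did not pass (-1.08, limma adjusted p = 0.0715).

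Fatty acid elongation and handling had 1 rise and 2 falls among 15 measured genes. Fabp5, the fatty acid binding protein of epidermis, rose by 1.14 ± 0.21, while Hacd1, a dehydratase of the elongation cycle, and the acyl-CoA synthetase gene Acsl5 fell by 0.87 and 0.47 on the log2 scale. Elovl5 had -1.01 (limma adjusted p = 0.0641). Elovl3 and Fa2h, an elongase and a fatty acid hydroxylase known from sebaceous glands and hair follicles, were singled out after their values were seen. Elovl3 had 3.94 and 10.30 in knockout and 4.80 and 10.17 in wild type at day 6, against 10.57 and 10.55 in knockout and 10.39 on the wild-type array at day 0. Fa2h had 6.41 and 10.31 in knockout and 6.08 and 10.11 in wild type at day 6, against 11.38 and 11.16 in knockout and 9.12 on the wild-type array at day 0. In both, replicate 1 of each genotype was far below replicate 2 at day 6. The mean of 11 sebaceous gland genes was also lower on these arrays, 6.65 (knockout) and 7.04 (wild type) on the replicate 1 arrays, beside 7.96 and 7.71 on the replicate 2 arrays, and its part was not tested.

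Among 10 genes of acylceramide assembly and triglyceride supply, 1 rose and 1 fell. Cyp4f16, which lies close to Cyp4f39 in the RefSeq gene order, rose by 1.35 ± 0.17, and Pnpla3, a lipase relative of Pnpla1, changed by -1.50 ± 0.25 (SE). Abhd5, the cofactor of PNPLA1, had 0.38 and Dgat1 0.55, and neither passed. Cyp4f genes are close relatives and may share probe signal.

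Of 17 measured genes of glucosylceramide and sphingomyelin turnover, 2 rose and 1 fell. Gba2, a glucosylceramidase outside the lysosome, rose by 1.79 ± 0.31 and the neutral sphingomyelinase gene Smpd3 by 1.27 ± 0.19, while Sgms2, a sphingomyelin synthase, changed by -1.47 ± 0.31 (SE). Gltp, a glycolipid transfer protein, had 0.52 (limma adjusted p = 0.0528). Of the other sphingomyelinase genes of the list, named after their values were seen, Smpd2 had -0.46 and Smpd4 0.62, and neither passed.

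Lamellar body and corneocyte envelope genes had 5 rises and 1 fall among 16 measured. Sdr9c7, the dehydrogenase that acts on the acylceramide after ALOX12B and ALOXE3, rose by 1.72 ± 0.22. Sult2b1, the cholesterol sulfotransferase, rose by 1.45 ± 0.16 and Casp14, the protease that processes filaggrin, by 1.99 ± 0.21 (SE). The other rises, named after their values were seen, were Tgm1, a transglutaminase, with 0.95 and Nipal4, an ichthyosis gene of the same lipid pathway, with 0.82, and Ephx2 changed by -1.29 ± 0.19 (SE).

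The other lipoxygenase genes had 0 rises and 1 fall among 6. Alox12e, the epidermal-type lipoxygenase, had 5.57 and 7.25 in knockout and 5.72 and 6.68 in wild type at day 6, against 10.74 and 10.62 in knockout and 9.37 on the wild-type array at day 0. It was 14.2-fold lower at day 6 (-3.83 ± 0.47, SE, limma adjusted p = 0.00542). Alox15 and Alox5 had -0.57 and -0.37 and did not pass. Alox8 had -1.41 over both genotypes, but 0.53 in knockout and -4.32 in wild type, where the single day 0 array carried the high value.

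Of 14 measured transcription factor genes, 1 rose and 2 fell. Ppard, a lipid-sensing nuclear receptor of keratinocytes, rose by 1.81 ± 0.22 (SE), with 11.32 and 11.36 in knockout and 10.94 and 11.41 in wild type at day 6 against 9.92 and 9.83 in knockout and 8.85 on the wild-type array at day 0. Pparg, its relative of fat and sebaceous glands, changed by -1.08 ± 0.24 and Gata3 by -1.04 ± 0.21 (SE). Grhl3, a regulator of barrier formation, had 1.32 with a limma adjusted p of 0.0501, just outside the threshold.

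Levels of other cell types moved with day as well. Among 8 measured suprabasal keratinocyte genes, 1 rose and 1 fell over both genotypes (median 0.23). These were Dsg1b with 1.55 and Flg2 with -3.67, named here after their values were seen. The mean of the 8 genes per array was 10.50 to 11.04 at day 6 and 10.68 to 11.23 at day 0. Among 8 basal genes 2 rose and 1 fell (median 0.53), with means of 10.74 to 10.96 at day 6 and 10.04 to 11.09 at day 0. Their differences ran from -3.47 (Krt15, the fall) to 1.67 (Lama3), also named after the values were seen. Muscle genes fell in 8 of 9 cases and fat genes in 4 of 7, with means of 8.67 to 9.46 at day 6 and 11.22 to 12.35 at day 0 for muscle, and 6.73 to 7.63 at day 6 and 9.70 to 10.49 at day 0 for fat. Fibroblast genes fell in 4 of 8 cases, and sebaceous genes in 4 of 11. Neutrophil genes rose in 2 of 7 cases, T cell and Langerhans cell genes rose in 1 case and fell in 3, endothelial genes rose in 1 case, and macrophage genes had 0 calls. The part of a changed share of keratinocytes in the rises above was not tested.

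For each of the 9 genes the most similar profile was sought among 17069 other named genes, as the mean absolute difference of the log2 values over the 7 arrays after each gene was centred on its own mean. Some gene always comes first in such a search, so the values describe these arrays only. Cers3 was closest to Fabp5, with 0.06. Ugcg was closest to Mxd1, Pnpla1 to Plcd1, Cyp4f39 to Arhgef1, Abca12 to Trim41, Elovl4 to Ldha and Smpd1 to Lgals4, all with 0.03 to 0.08. Alox12b was closest to Smurf1 with 0.12 and Aloxe3 to Ano1 with 0.17. Among the 9 themselves, Ugcg and Pnpla1 were closest to each other (0.14), as were Alox12b and Aloxe3 (0.34). Genes outside the 9 were closer than these partners: 31 for Ugcg, 27 for Pnpla1, 110 for Alox12b and 6 for Aloxe3.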

How the data were processed

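The authors deposited log2 expression values for 34760 probe sets on 7 arrays, for which the submitters' processing notes name RMA and R 2.11.1; other settings and the genome build are not given in the sources used here. The log2 scale was read from the range of the deposited values, 2.37 to 13.38. RMA subtracts background and normalizes arrays to one another, which compresses low values. The number of arrays limits the precision. Of the probe sets, 21640 name 1 gene, 1321 several and 11799 none; of several for a gene, the one with the highest mean was used, which gave 19937 genes (19855 matched to RefSeq GRCm38.p6 by gene identifier, 0 symbols changed).

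The tests here are from limma 3.58.1 (lmFit, then eBayes; R 4.3.3; two-sided, Benjamini-Hochberg over 19937 genes, threshold 0.05). Day and genotype over all arrays came from an additive fit and the 5 other comparisons from a fit of 4 group means. Intervals are 95% and use limma's moderated variances. The procedure was tested on simulated data. The 9 genes and all lists were chosen with earlier results of these data known. Named pathway genes are up to 4 per list with the smallest p for day; others are marked as chosen after their values were seen. Alternatives were a replicate block, trended or robust variances, a filter at log2 5 on 2 arrays, probe set means, all probe sets, 2 scalings, each array left out, and the arrays with Xist signal left out or given a term. Same-numbered replicates are not stated to be related, and their deviations correlated across genes by 0.04, 0.09 and 0.23 between groups, so the numbers were not taken as pairs.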

Additional observations from a re-analysis of the deposited data

Results flagged for a closer look

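The day change of 2 genes differed between genotypes by the test of that difference. The day change in knockout minus that in wild type was -2.12 on the log2 scale for Alox12b (limma adjusted p = 0.0122), with 0.65 in knockout and 2.77 in wild type. It was -2.89 for Aloxe3 (limma adjusted p = 0.0268), with 0.50 in knockout and 3.39 in wild type. All arrays showed the direction of their genotype: day 6 lay above day 0 in both genes in each genotype. Both values rest on the single wild-type day 0 array, on which the hair follicle genes also had their highest level. No group had enough arrays for a search for outlying samples.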

How the results depend on the processing

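Over both genotypes 4 of the 9 genes were called, 7 with an intensity trend (Alox12b, Abca12 and Smpd1 in addition) and 1 to 4 when single arrays were left out. In knockout 4 were called, 6 with a trend (Cyp4f39 and Smpd1 in addition) and 2 to 5 without single arrays. In wild type 3 were called, 5 with a trend and 2 to 5 without single arrays. For genotype at day 0, 2 were called, 4 with a trend (Elovl4 and Abca12 in addition) and 2 to 3 without single arrays. For the difference in day change 2 were called, 1 with all probe sets tested (Alox12b) and 0 to 2 without single arrays. Genotype at day 6 and over both days gave 0 members in every alternative. The cause of these moves was not tested. The wild-type day 0 array cannot be left out where it is the only one of its group, so those comparisons have no value without it.

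With the replicate block Pnpla1 was lost over both genotypes (1.03, limma adjusted p = 0.0589) and Ugcg in wild type (0.96, 0.0520), while Cyp4f39 was gained in knockout (0.97, 0.0195). The block changed no other call among the 9 genes.

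Without single arrays, Alox8 over both genotypes (-1.41) ran from -1.96 to 0.53. The last is without the wild-type day 0 array or both arrays with Xist signal, where only the knockout change is left. Some smaller differences also changed sign. For genotype over both days, Cers3 ran from -0.39 to 0.035, Pnpla1 from -0.16 to 0.40 and Smpd1 from -0.17 to 0.019. These upper ends are without the wild-type day 0 array, where only the day 6 difference is left. Elovl4 in knockout ran from -0.0012 to 0.13. For genotype at day 6, Elovl4 ran from -0.00016 to 0.13, Cers3 from -0.013 to 0.083 and Smpd1 from -0.16 to 0.20, and the difference in day change of Cyp4f39 ran from -0.81 to 0.025. Without both arrays with Xist signal the genotype difference at day 6 was -0.00016 for Elovl4 (the value over both days is then the same one), -0.0051 for Cers3 and -0.053 for Smpd1. A term for these arrays gave -0.059 for Pnpla1 over both days. In both of these Xist settings, wild-type day 6 replicate 2 alone stands for wild type in the genotype difference. Centring arrays on their medians gave 0.0039 for Ugcg at day 0. Centring moved the median of all genes by 0.14 for genotype at day 0 and by -0.15 for the difference in day change.

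Over all genes the day change had 2286 calls, from 727 (without knockout day 0 replicate 1) to 2473 (with dim genes left out) in settings that keep both genotypes. The calls were 1381 to 4027 in knockout (3251), 1040 to 2209 in wild type (1418), 1239 to 4328 for genotype at day 0 (2869) and 143 to 1038 for the difference in day change (619). Genotype over both days, with 0 calls, had up to 836 without wild-type day 6 replicate 2, and genotype at day 6 up to 43. With 1 or 2 arrays a group, the number of arrays limits every comparison.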
